A study of Mus with 17 samples.

Results

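A set of 10 genes of resident Kupffer cells, the macrophages that line the liver sinusoids, was followed in whole livers of mice after a long western diet or chow. The genes were taken by symbol from the per-sample count files: Cd163, Marco, Timd4, Clec4f, Vsig4, Cd5l, Folr2, Fcna, Id3 and Adgre1, 10 of the 24940 genes listed, and all 10 passed the filter on low counts. The livers came from 17 male mice of the strain C57BL6/JBomTac. In 8 of them western diet had been fed for 52 weeks, together with drinking water that held 42 g/L of fructose, which the labels describe as inducing advanced NASH, a fatty liver with inflammation, and 9 mice of the same age had received standard chow and pure water over the same 52 weeks. All were fasted overnight before they were killed. Each library was taken as 1 mouse, on which the labels do not say more. The treatment label sets the diet here, since the source name reads western diet for every sample.

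Resident Kupffer cells are seeded before birth and renew themselves in place, and they clear bacteria, worn red cells, dying cells and modified lipoproteins from portal blood. The receptors that do this work are among their best markers, whereas monocytes that enter an injured liver can take up the niche and acquire these markers in part and at different speeds. Clec4f is close to specific for cells in the Kupffer cell niche, Timd4 is carried mainly by the cells of embryonic origin, and Adgre1 (F4/80) is shared by most mouse macrophages.

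The markers did not move as a block. Cd163 and Marco were at a small fraction of their chow level in most western diet livers and Fcna was lower, while Clec4f, Folr2, Vsig4, Cd5l and Adgre1 were higher, and Timd4 and Id3 did not pass the test. By edgeR's quasi-likelihood test (n = 8 and 9), with p-values adjusted over 13204 genes by the Benjamini-Hochberg method and a threshold of 0.05, 5 of the 10 genes were higher and 3 lower. The background is wide, since 48.4% of all genes tested passed, 24.8% as rises and 23.6% as falls. The libraries of the diets did not overlap in 4 of the genes that rose and in 2 of those that fell, against 6.98% and 5.05% of all genes. The median log2 difference, western diet minus chow, was 0.16 over the 10 genes and -0.0091 over all genes. Bulk RNA of a whole liver does not separate fewer cells of a type from less transcript per cell, so these differences are per liver transcript.

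**Figure D1:**
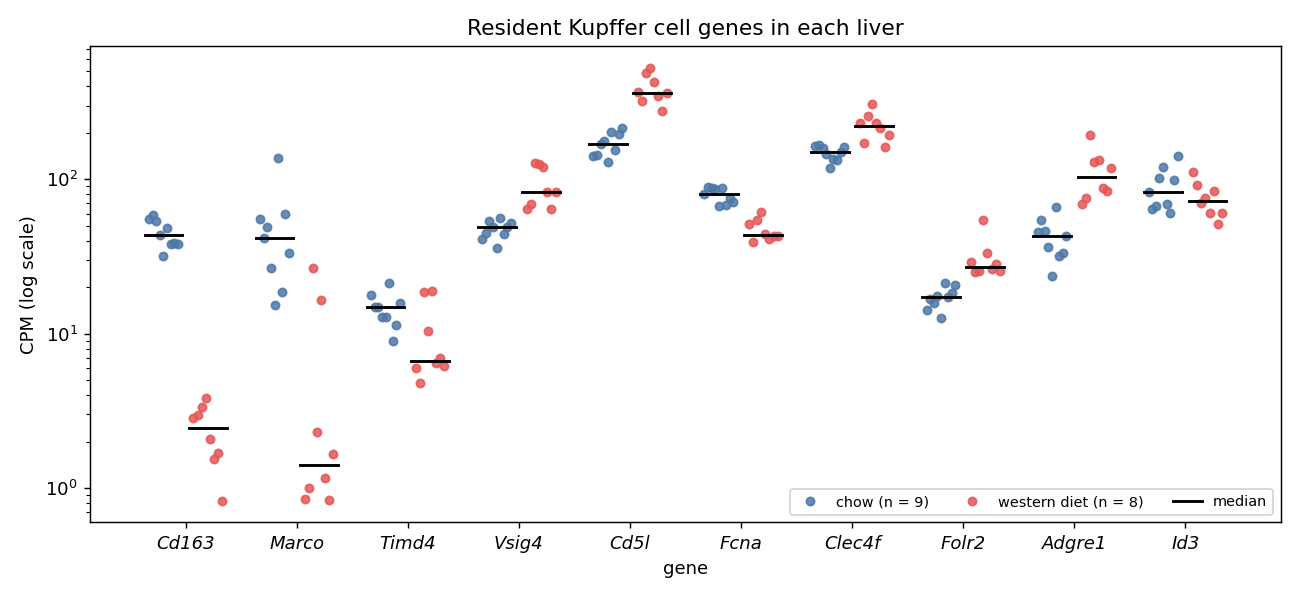
Level of each of the 10 genes (x axis) in every liver, in CPM on a log scale (y axis), with 1 point per library, chow in blue (n = 9) and western diet in red (n = 8), and a black line at the median of each diet. Cd163 lay at 0.829 to 3.85 CPM on western diet and at 31.95 CPM or more in every chow liver, while 2 western diet livers held far more Marco than the other 6.

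The libraries held 3604212 to 9071908.5 counts, so that 3 counts, the most that a reading of 0 would leave possible, stood at 0.314 to 0.8503 CPM (counting error only). The 8 hepatocyte markers summed to 10681 to 19911 CPM, and no Kupffer cell gene of the 10 was at 0 in any library. Western diet replicate 5 and chow replicate 2 stood apart by transcripts of pancreatic acinar cells, at 5857 and 18395 summed CPM over 14 markers against 178 to 688 CPM in the other libraries, and replicate 5 also held the most B cell transcripts (188 CPM over 8 markers, against at most 85.7 CPM elsewhere). Without both of these libraries 5 of the 10 genes rose and 4 fell, the added fall being that of Timd4.

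Receptors that take up cargo came first. Cd163, which binds haemoglobin held by haptoglobin and clears it from plasma, ranged from 31.95 to 58.7 CPM (counts scaled to the effective library size) with a median of 43.4 in chow livers and from 0.829 to 3.85 CPM with a median of 2.45 in western diet livers. The highest western diet liver was thus far below the lowest chow liver. The fitted difference was -4.32 ± 0.21 in log2 (± SE; 20.03-fold lower, adjusted p = 5.55e-11), and it stayed between -4.45 and -4.17 when single libraries were left out. The western diet libraries held 7 to 20 counts of Cd163 and the chow libraries 190.5 to 377, so the low level rests on few reads but was not at 0.

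Marco, a scavenger receptor of class A that binds bacteria and modified lipoproteins, split the western diet livers. It ranged from 15.4 to 138 CPM with a median of 41.4 on chow, and from 0.837 to 26.8 CPM with a median of 1.41 on western diet. Western diet replicates 3 and 5 held 26.8 and 16.6 CPM, inside the range of chow, and the other 6 held at most 2.31 CPM, in 1 of them as few as 3 counts. Over all libraries Marco was lower by -2.94 ± 0.71 in log2 (7.66-fold, adjusted p = 0.00297). Its size depended on single libraries: the log2 difference was -3.67 without western diet replicate 3, -3.40 without replicate 5 and -2.55 without chow replicate 6, which alone held 138 CPM against at most 59.8 CPM in the other chow livers. Leaving out replicates 3 and 5 together, chosen after their Marco level was seen, gave -5.22, a description and not a test. Replicate 5 is also the western diet liver with pancreatic and B cell transcripts, and their part in its Marco level was not tested; replicate 3 held 257 summed CPM of pancreatic markers, near the median of its diet (248 CPM).

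Timd4, which recognises phosphatidylserine on dying cells, varied less between western diet livers than Marco. The largest gap between these livers took up 42.5% of the log2 CPM range, against 56.8% for Marco. Chow livers ranged from 9.02 to 21.3 CPM (median 14.9) and western diet livers from 4.81 to 19.0 CPM (median 6.66). The highest levels on western diet were again those of replicates 5 and 3, at 19.0 and 18.6 CPM, and the other 6 lay between 4.81 and 10.4 CPM, 5 of them below every chow liver. Timd4 did not pass over all libraries (log2 difference -0.57 ± 0.27, adjusted p = 0.0881). It passed without replicate 3 (-0.75, adjusted p = 0.0195), without replicate 5 (-0.79, adjusted p = 0.0139) and also when limma-voom replaced edgeR (-0.71, adjusted p = 0.0255); over the 17 fits that left out 1 library the difference ran from -0.79 to -0.46.

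Vsig4, the complement receptor that captures particles coated with C3 fragments, rose. Its levels were 35.9 to 56.3 CPM (median 49.1) on chow and 63.8 to 128 CPM (median 82.5) on western diet, with no overlap. The log2 difference was 0.96 ± 0.15 (1.94-fold, adjusted p = 3.55e-05). Within the western diet 3 livers, replicates 3, 4 and 5, stood at 119 to 128 CPM and the other 5 at 63.8 to 82.6 CPM.

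Secreted proteins of Kupffer cells went opposite ways. Cd5l (AIM), a soluble scavenger receptor protein that supports macrophage survival and is induced by the oxysterol receptor LXR, ranged from 129.7 to 215 CPM (median 170.2) on chow and from 278 to 529.9 CPM (median 365) on western diet. Every western diet liver was above every chow liver, by 1.20 ± 0.13 in log2 (2.29-fold, adjusted p = 3.61e-07). Fcna, a ficolin that binds sugars on microbes and starts the lectin pathway of complement, ranged from 67.1 to 89.8 CPM (median 79.8) on chow and from 39.2 to 61.4 CPM (median 43.7) on western diet. Here every western diet liver was below every chow liver, and Fcna fell by 0.75 ± 0.093 in log2 (1.68-fold lower, adjusted p = 2.05e-06). The spread of Fcna within a diet was among the smallest of the 10 genes, with a coefficient of variation of 16.5% on western diet and 11.4% on chow.

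Lectin, folate receptor and adhesion receptor genes rose. Clec4f, the galactose-binding lectin of Kupffer cells, ranged from 119 to 166 CPM (median 149) on chow and from 163 to 309 CPM (median 223) on western diet. Only western diet replicate 7 (163 CPM) lay within the chow range, and the log2 difference was 0.58 ± 0.11 (1.49-fold, adjusted p = 1.97e-04). Folr2, a folate receptor of tissue-resident macrophages, went from 12.6 to 21.3 CPM (median 17.4) on chow to between 25.2 and 54.3 CPM (median 27.2) on western diet, a difference of 0.84 ± 0.15 in log2 (1.79-fold, adjusted p = 9.39e-05). Most western diet livers were close together in Folr2, and replicate 4 held 54.3 CPM against at most 33.4 CPM in the others; without it the difference was 0.68 (adjusted p = 2.37e-05). Adgre1, an adhesion receptor used as a general macrophage marker, ranged from 23.8 to 66.4 CPM (median 42.8) on chow and from 68.9 to 193 CPM (median 103) on western diet. It had the largest rise of the 10, 1.39 ± 0.22 in log2 (2.63-fold, adjusted p = 4.96e-05), although the groups were separated only by the gap between 66.4 and 68.9 CPM.

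Id3, a transcription regulator needed for Kupffer cell development that many other liver cells also make, showed no difference past the threshold. It ranged from 60.7 to 142 CPM (median 83.3) on chow and from 51.5 to 111 CPM (median 72.7) on western diet, with broad overlap. The log2 difference was -0.25 ± 0.18 (adjusted p = 0.271).

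On the mouse assembly GRCm38.p6 (mm10) of RefSeq, Cd163 lies on chromosome 6, 124304636 to 124330529, Clec4f on the same chromosome, 83644542 to 83656116, Marco on chromosome 1, 120474538 to 120505024, Timd4 on chromosome 11, 46810786 to 46844333, and Vsig4 on chromosome X, 96247201 to 96293438. Cd5l lies on chromosome 3, 87357881 to 87371074, Folr2 on chromosome 7, 101839988 to 101857190, Fcna on chromosome 2, 25624665 to 25635440, Id3 on chromosome 4, 136143822 to 136145392, and Adgre1 on chromosome 17, 57358581 to 57483529. Each span covers the whole gene, exons and introns. Annotated RNA genes that are not listed in the count files overlap Cd163 (Gm52877), Folr2 (Gm10602) and Fcna (Fcnaos and Gm35630), and pseudogenes overlap Adgre1, so some reads of these 4 genes may stem from the overlapping transcript.

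Relative to other macrophage transcripts the picture shifted. All 12 genes of a pan-macrophage list rose, led by the pore-forming protein Mpeg1 (3.76-fold) and the protease cathepsin S, Ctss (3.35-fold), with a median log2 difference of 1.45. Their summed level was 501 to 871 CPM on chow and 1736 to 2467 CPM on western diet. Of all genes tested 24.8% rose. All 15 tested genes of a list of monocyte-derived and lipid-associated macrophages rose too, among them the fractalkine receptor Cx3cr1 (6.91-fold) and the monocyte chemokine receptor Ccr2 (5.44-fold), the latter named after its value was seen. When libraries were scaled to the summed pan-macrophage counts in place of all transcripts, none of the 10 genes rose and 9 fell, but 90.5% of all genes fell on that scale, and 1.27% rose. The order of the members is what that scale keeps: Cd163 was at -5.78 and Marco at -4.43 in log2, Fcna at -2.23, Timd4 at -2.09, Id3 at -1.74, Clec4f at -0.91, Folr2 at -0.64, Vsig4 at -0.55, Cd5l at -0.29, and Adgre1 at -0.084 (adjusted p = 0.602). Clec4f, which rose per liver transcript, was thus lower per pan-macrophage transcript, and the Adgre1 difference missed the threshold there.

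**Figure D2:**
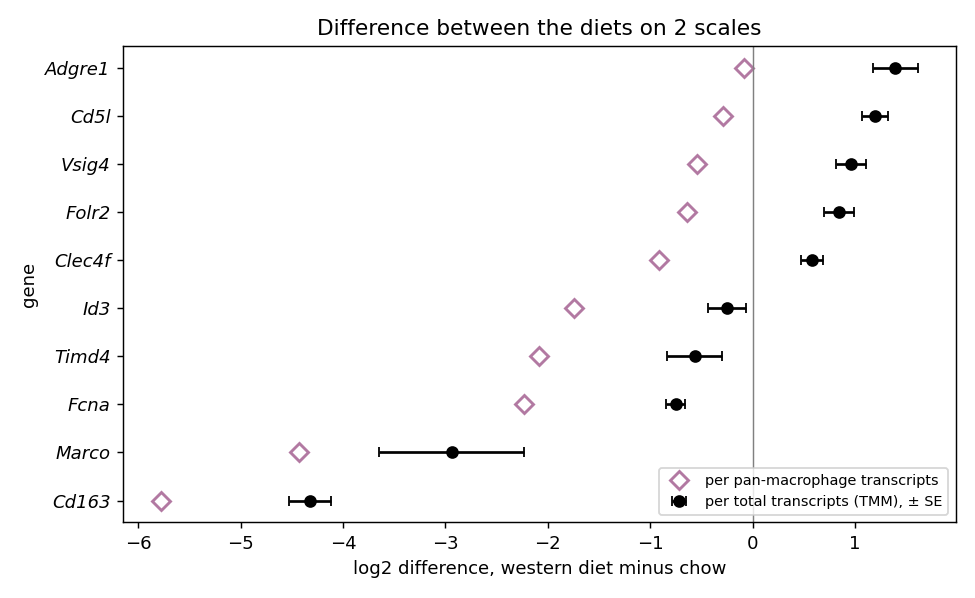
Log2 difference of each gene (y axis), western diet minus chow (x axis), as black points with bars of ± 1 SE for libraries scaled by TMM factors, and as open diamonds for libraries scaled to the summed counts of 12 pan-macrophage genes (n = 8 and 9). The 5 genes that rose on the first scale, from Clec4f at 0.58 to Adgre1 at 1.39, lie at or below 0 on the second, from -0.91 to -0.084.

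Within a library the genes can be set against Clec4f, free of the scaling between libraries. Clec4f itself rose 1.49-fold per liver transcript, so ratios to it are shifted down on western diet. Per 100 counts of Clec4f, chow livers held 23.7 to 35.6 counts of Cd163 (median 29.6) and western diet livers 0.427 to 1.69 (median 1.15). Marco went from 12.9 to 102 counts (median 24.9) to 0.365 to 10.4 (median 0.678), so that replicates 3 and 5, which overlapped chow in CPM, did not overlap it per Clec4f count. Fcna went from 44.5 to 64.3 counts (median 54.1) to 19.2 to 26.3 (median 21.6). Cd163, Marco and Fcna were the 3 genes with every western diet liver below every chow liver, as were 18.9% of all genes tested. Cd5l was the only 1 of the 9 ratios with every western diet liver above, at 157 to 189 counts against 85.7 to 148, as were 1.33% of all genes. The remaining 5 overlapped: Timd4 at 2.55 to 8.22 against 6.77 to 15.6 counts, Id3 at 24.4 to 53.1 against 38.6 to 101, Adgre1 at 29.5 to 74.4 against 19.96 to 48.7, Vsig4 at 27.8 to 51.7 against 25.1 to 41.3, and Folr2 at 9.92 to 17.6 against 8.70 to 15.6. Per pan-macrophage count, 6 of the 10 genes (Cd163, Marco, Timd4, Clec4f, Fcna and Id3) had every western diet liver below every chow liver, as had 76.1% of all genes, and none had every one above, as had 0.106%. These ratios are descriptions and carry no test.

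**Figure D3:**
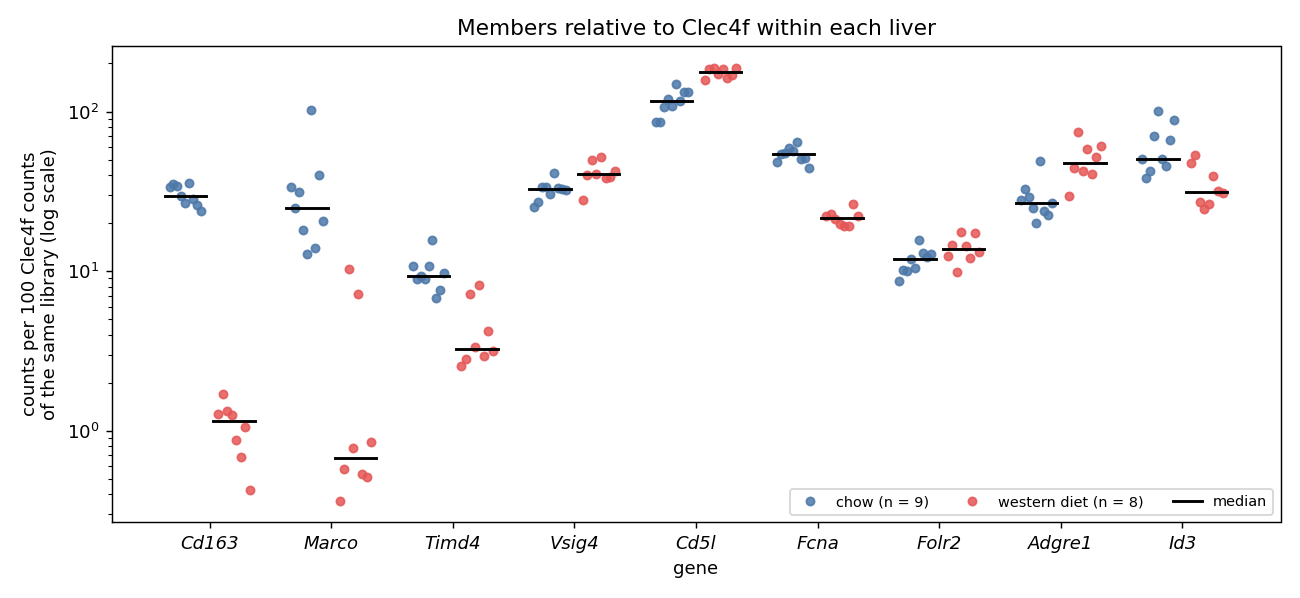
Counts of each gene (x axis) per 100 counts of Clec4f in the same library (y axis, log scale), with 1 point per liver, chow in blue (n = 9), western diet in red (n = 8) and black lines at the medians. Cd163, Marco and Fcna of every western diet liver lie below every chow liver, and Cd5l lies above.

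Livers of the same diet differed in a shared way. Chow replicate 5 held the least of 8 of the 10 genes, all but Timd4 and Id3, and the least pan-macrophage transcript (501 CPM, while the rest of the chow livers held 660 to 871 CPM), at an ordinary depth of 6656050.5 counts. Chow replicate 6 held the most of 5 genes (Marco, Timd4, Vsig4, Folr2 and Adgre1). On western diet, replicate 4 held the most Cd163, Clec4f, Cd5l, Folr2 and Fcna, replicate 3 the most Marco, Vsig4 and Adgre1, and replicate 7 the least of 5 genes. Replicate 3 also had the lowest summed level of the monocyte-derived and lipid-associated list, 909 CPM where the rest of its diet held 1189 to 1715 CPM, and replicate 5 the highest. The 2 livers with the most Marco and Timd4 were therefore the opposite ends of their diet in that summed level. Lpl and Spp1, named after their values were seen, weighed most in the sum, with means of 402 and 333 CPM on western diet. Every other tested gene of the list had a lower mean. Whether replicates 3 and 5 were also the ends in the other genes of the list was not tested.

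**Figure D4:**
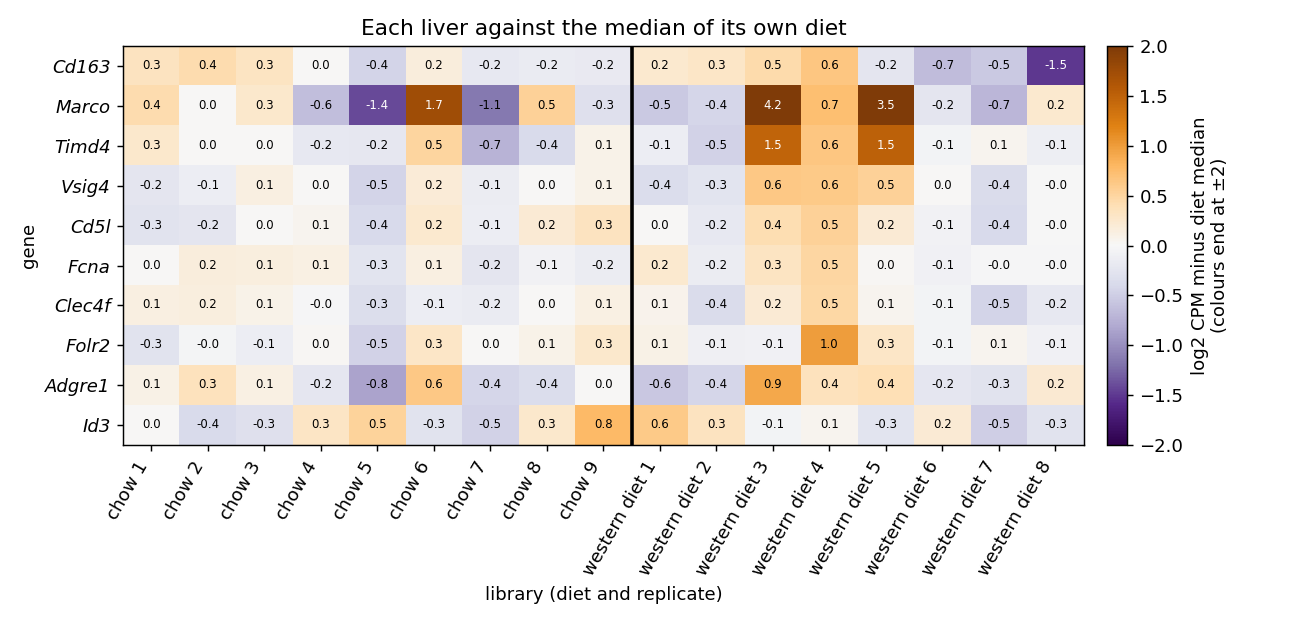
Log2 CPM of each gene (y axis) in each library (x axis) minus the median of its own diet, with orange above and purple below and a black line between the diets. Western diet replicates 3 and 5 stand out in Marco and Timd4, chow replicate 5 is below its median in every gene except Id3, and chow replicate 6 is high in Marco.

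Covariation was examined within each diet over the 45 pairs of the genes, using log2 CPM with exact two-sided permutation tests over all orders of the libraries. On western diet Marco fell into separate clusters of 6 and 2 livers and Vsig4 into clusters of 5 and 3, so Marco was correlated within its cluster of 6 and the 9 pairs of Vsig4 were left untested. The median Pearson r was 0.38 over the 45 chow pairs and 0.56 over the 36 western diet pairs, beside -0.0018 and -0.0010 over all pairs of 13021 expressed genes. A positive r was found in 37 of the 45 and 32 of the 36 pairs, beside 49.8% and 49.9% of all pairs. The values over all pairs use every liver of a diet, without the cluster rule. All pairs share the same libraries, and the amount of macrophage RNA in a liver was not separated from them. At an adjusted p of Pearson r under 0.05, 2 pairs passed on chow and 1 on western diet.

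By Pearson r, the secreted protein Cd5l took part in all 3. On western diet it followed Clec4f (r = 0.95, exact permutation p = 5.46e-04, adjusted over 36 pairs 0.0196; Spearman rho = 0.95, exact permutation p = 0.00114, n = 8), and r was 0.86 without the 2 livers farthest from the median of Clec4f. On chow the same pair had r = 0.23 (exact permutation p = 0.56, n = 9). On chow Cd5l followed Folr2 (r = 0.89, exact permutation p = 8.43e-04, adjusted over 45 pairs 0.0379; rho = 0.93, exact permutation p = 7.50e-04, n = 9; r = 0.79 without 2 livers) and Vsig4 (r = 0.87, exact permutation p = 0.00198, adjusted 0.0445; rho = 0.83, exact permutation p = 0.00827, adjusted 0.0744, n = 9; r = 0.74 without 2 livers). On western diet Cd5l and Folr2 had r = 0.62 (exact permutation p = 0.105, n = 8). Whether a relation differed between the diets was not tested. With the 2 farthest livers left out of each pair, none passed the adjustment in either diet.

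Cd163 and Fcna did not pass the adjustment of r on chow (r = 0.85, exact permutation p = 0.00736, adjusted 0.0637, n = 9, and r = 0.73 without 2 livers). By Spearman's rho the same pair did pass on chow (rho = 0.90, exact permutation p = 0.00203, adjusted 0.0456, n = 9). On western diet its r was 0.63 (exact permutation p = 0.0947, n = 8). Timd4 and Adgre1 passed the adjustment in neither diet, with r = 0.76 on chow (exact permutation p = 0.0195, adjusted 0.1095, n = 9; r = 0.65 without 2 livers) and 0.85 on western diet (exact permutation p = 0.00459, adjusted 0.0551, n = 8; r = 0.71 without 2 livers). For Id3, 7 of its 9 pairs on chow had a negative r, down to -0.62 with Cd163 (exact permutation p = 0.0772, adjusted 0.248, n = 9; rho = -0.43), and chow replicate 5, lowest in 8 genes, held the second highest Id3. On western diet 4 of its 8 pairs had a positive r, up to 0.48 with the same Cd163 (exact permutation p = 0.229, n = 8). Cd163 and Marco, the genes with the largest falls, had r = 0.58 on chow (exact permutation p = 0.0984, n = 9) and 0.072 among the 6 western diet livers with low Marco (exact permutation p = 0.876), where both rest on few counts.

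**Figure D5:**
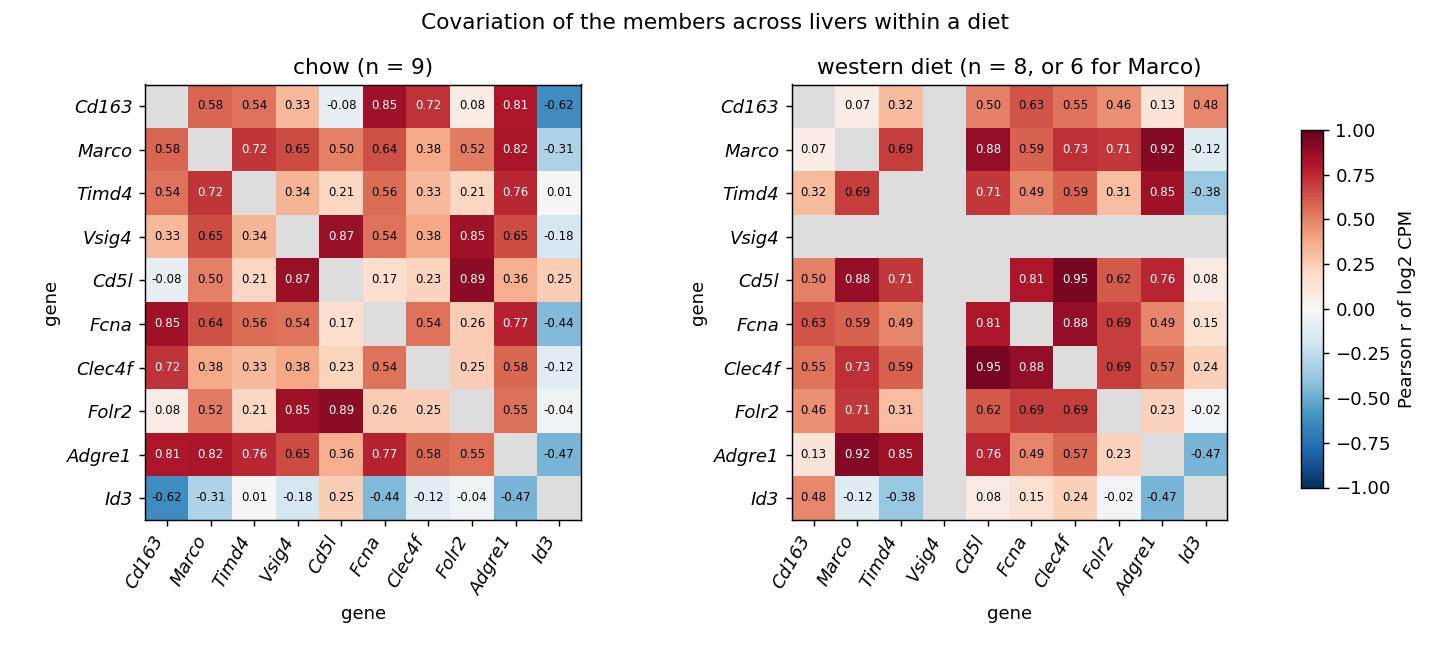
Pearson r of log2 CPM for each pair of the 10 genes (both axes) across chow livers (left, n = 9) and western diet livers (right, n = 8, or 6 for pairs with Marco), red for positive and blue for negative, grey where no r was computed. The strongest cells are Cd5l with Folr2 (0.89) on chow and Cd5l with Clec4f (0.95) on western diet, and the row of Id3 runs from -0.62 to 0.25 on chow and from -0.47 to 0.48 on western diet.

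Other genes that varied most like a member from liver to liver were sought among 13021 expressed genes by the mean of the within-diet Pearson r (n = 8 and 9). This is a description, and the best of so many genes is high by selection. Adgre1 was nearest to Fyb (mean r = 0.92), Clec4f to C1qc (0.89) and Ahsa1 (0.86), Cd5l to LOC102632231 (0.87) and Lgmn (0.84), Folr2 to Lgmn (0.81) and Slc37a1 (0.80), and Timd4 to Cd300a (0.86) and Sgk1 (0.81). Fcna was nearest to Kcnk3 (0.84) and Csf3r (0.83), Cd163 to Knop1 and Atxn7l3 (0.85 each), and Id3 to Hsd3b7 and Hebp1 (0.91 each). For Marco and Vsig4, whose western diet livers fell into clusters, the same measure named Fyb and Lyz2, and Clec12a and P2ry12; on chow alone r was 0.93 and 0.82 for the first pair, and 0.85 and 0.89 for the second. With Spearman's rho 11 of the 20 nearest genes (2 for each member) were among the nearest 5, and with RLE size factors 20. By rho, 0 of the 2 were kept for each of Vsig4, Folr2 and Fcna. For each of Marco, Timd4, Id3 and Adgre1, 2 of 2 were kept. Trem2, the lipid receptor of recruited macrophages, gave no relation that passed with any member: over 9 members on western diet r ran from -0.25 to 0.56 and over 10 on chow from -0.34 to 0.43, and the smallest adjusted p was 0.83 (exact permutation tests, n = 6 to 9, relations chosen after seeing the data).

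Partners of Cd163 in haemoglobin and haem handling mostly missed the threshold. Of 14 genes 2 rose, 1 fell (Cd163) and 11 did not pass, beside 24.8% rises and 23.6% falls over all genes tested. The haem oxygenase Hmox1, which breaks down haem, rose 1.72-fold and the biliverdin reductase Blvra by 0.49 in log2, and the ligand haptoglobin, Hp, named after its value was seen, was at 1263 ± 376 against 1099.9 ± 150.2 CPM (adjusted p = 0.266). With library size alone, and without chow replicate 7, 5 of the 14 rose, and 2 fell without western diet replicate 1 or 4.

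Scavenger receptors related to Marco and Cd163 rose more often than they fell. The list holds Cd163, Marco and Cd5l themselves, and Cd5l is among those that rose. Beside these counts, 24.8% of all genes tested rose and 23.6% fell. Of 15 tested genes 9 rose, 3 fell (Cd163, Marco and the lysosomal receptor Scarb2, 1.48-fold lower) and 3 did not pass (Colec12, Stab1 and the mannose receptor Mrc1, at 0.098, 0.0027 and 0.077 in log2). The ferritin receptor Scara5 had the largest fitted rise (4.36-fold), but its livers were uneven, at 24.4 ± 29.6 CPM on western diet and 5.55 ± 2.16 CPM on chow. Western diet replicate 4 held 96.97 CPM of it, and without that liver the log2 difference was 1.35 in place of 2.13. Macrosialin, Cd68, rose 2.998-fold with no overlap. The closest relative of Marco in function, Msr1, named after its value was seen, rose 2.74-fold (52.9 ± 11.9 against 19.4 ± 3.39 CPM).

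Of the receptors and bridging proteins for dying cells, Timd4's field, 9 of 12 tested rose and 1 fell. The shares over all genes tested were 24.8% and 23.6%. The other 2 list genes, Timd4 and protein S (Pros1, 0.23 in log2), did not pass. The receptor Havcr2 (Tim-3) rose 4.12-fold, the receptor kinase Axl 2.66-fold and the bridging protein Mfge8 2.37-fold, while Timd2, a related receptor, was 1.31-fold lower.

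Among complement receptors and lectin pathway genes, the field of Vsig4 and Fcna, 8 of 16 rose, 2 fell and 6 did not pass. Vsig4 is among the 8 that rose and Fcna among the 2 that fell. Over all genes tested, the background of each list here, 24.8% rose and 23.6% fell. Among the receptors that rose were the integrin Itgax at 5.69-fold, the C5a receptor C5ar1 at 3.59-fold and the C3a receptor C3ar1 at 2.80-fold. Cr1l, named after its value was seen, did not pass edgeR's test (0.13 in log2, adjusted p = 0.103). The lectin Mbl2, which starts the same pathway as Fcna, fell by 0.43 in log2. In folate handling, Folr2 was the single rise of 7 tested genes; the carriers Slc46a1 and Slc19a1 and the folate-trapping enzyme Fpgs fell (by 0.46, 0.35 and 0.298 in log2) and 3 did not pass, among them Slc46a3 and Ggh (0.16 and -0.062). With library size alone 1 of these 3 falls was left. Of 12 LXR target genes, the family to which Cd5l belongs, 6 rose and none fell by edgeR's test (0 also with DESeq2 and limma-voom, and 0 at an unadjusted p under 0.05): the sterol exporter Abcg1 rose 2.74-fold, Cd5l 2.29-fold, the lipogenic factor Srebf1 2.09-fold and Abcg5 1.86-fold.

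Transcription factors of Kupffer cells rose more often than they fell. Of 12 genes 6 rose, 2 fell and 4 did not pass, Id3 among them. With single livers left out, 4 to 6 rose and 2 to 3 fell. Over all genes tested, the background of each list here, 24.8% rose and 23.6% fell. Spi1 (PU.1), the master factor of myeloid cells, rose 2.68-fold, Zeb2 1.88-fold and Spic, a factor of haem-handling macrophages, 1.62-fold, while Rxra and Smad4, both made throughout the liver, fell by 0.36 and 0.34 in log2. Genes that answer BMP and TGF-beta signals, the family of Id3, gave 1 rise in 9 (Skil, 0.45 in log2) and 1 fall (Id4, by 0.61), with 7 that did not pass and a median of -0.33; without chow replicate 6 there were 5 falls, 3 without western diet replicates 2 or 6 or chow replicate 7, and 2 without western diet replicates 1 or 3 or chow replicate 3, each left out alone. Of the 17 niche signals and receptors 10 rose and 3 fell. The chemokine Ccl2, which draws in monocytes, rose 7.47-fold and the receptor Csf1r, on which macrophages depend, 2.14-fold, while the BMP ligands Bmp10, Bmp2 and Bmp6 fell by 1.09, 0.79 and 0.55 in log2. Bmp10 was low throughout (0.998 ± 0.291 against 2.12 ± 0.514 CPM), and a further BMP ligand, Gdf2, named after its value was seen, did not pass (0.22 in log2, adjusted p = 0.174).

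Other markers ascribed to Kupffer cells leaned upward, and several of them are also made by endothelial cells or hepatocytes. Of 16 tested genes 10 rose, 1 fell and 5 did not pass, beside 24.8% rises and 23.6% falls over all genes. Lyve1, also a marker of sinusoidal endothelium, rose 2.84-fold, the kinase Dmpk 2.47-fold and the interleukin-18 binding protein Il18bp by 1.26 in log2, and Hpgd fell by 0.36 in log2. Of 10 sinusoidal endothelial markers 1 rose and 3 fell, beside 24.8% and 23.6% of all genes. Kdr, Dnase1l3 and Clec4g fell by 0.67, 0.62 and 0.51 in log2, Stab2 rose 1.26-fold, and 6 did not pass. Their summed level was 392 to 784 CPM on western diet and 642 to 776 CPM on chow. The 8 markers of peritoneal macrophages, which can carry Timd4 and Marco-like receptors, summed to 934 to 1360 CPM against 968 to 1354 CPM, most of it F5, a coagulation factor of hepatocytes; their defining factor Gata6 was at 21.95 ± 2.64 against 19.6 ± 3.74 CPM (adjusted p = 0.203). Of the 5 tested, 2 rose, 1 fell (F5) and 2 did not pass: the lubricating protein Prg4 rose 1.94-fold (84.8 ± 62.5 against 43.5 ± 10.1 CPM, adjusted p = 0.0116), with 237 CPM in western diet replicate 4 and at most 87.1 CPM in the others, and the adhesion molecule Icam2 rose 1.41-fold (adjusted p = 0.015). The part of any of these cell types in the results for the 10 genes was not tested.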

How the data were processed

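RNA was measured in 17 whole livers by paired-end RNA-seq, per the labels' protocols. The values are expected counts per gene, as deposited by the authors. In each library's file 29.4% to 33.7% of values are not whole; how reads were split is not given in the sources used here, nor are strand, annotation and aligner options. The submitters' processing notes list STAR 2.4.1c (an aligner), HOMER (a counting and peak suite) and the build mm10, with no role or order. The deposited counts were rounded to whole numbers, 3 genes without values were dropped, low genes were removed with filterByExpr (13204 kept), and diets were compared with edgeR 4.0.16 (TMM factors, robust quasi-likelihood test, Benjamini-Hochberg over all genes kept). CPM uses TMM library sizes.

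Each library was taken as 1 mouse. The labels do not say more about separate animals, so p-values measure the spread between these libraries. The pairs were correlated on log2 CPM with exact permutation (Python 3.11.15, scipy 1.17.1). A pair was taken within a cluster of at least 6 libraries where the largest gap took up most of the range. A single library beyond the gap was not counted as a cluster, so Folr2 on western diet was correlated over all libraries. Alternatives were DESeq2 1.42.0, limma-voom 3.58.1, surrogate variables (sva 3.50.0), other scalings and filters, and libraries left out. The fits were tested on simulated data. The members and lists were chosen with earlier results of these data known. From each list the text names up to 4 genes past the threshold with the largest difference and a mean log2 CPM of at least 1, up to 3 that moved against the rest and up to 3 that did not pass; other genes are said to be named after their values were seen. Values of 3 genes that this rule or the search for similar genes would name are not reported here. Gene spans come from RefSeq GRCm38.p6.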

Additional observations from a re-analysis of the deposited data

Results flagged for a closer look

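Among the 20 sets of levels of the 10 genes (each gene in each diet), 2 held a single liver far from the others by Dixon's criterion at the 95% level, where chance alone gives about 1 in 20. Marco stood at 138.474 CPM in chow replicate 6, with the next chow liver at 59.8 CPM, and the gap took up 0.639 of the range of the diet. Folr2 stood at 54.2586 CPM in western diet replicate 4, with the next western diet liver at 33.4 CPM, and the gap took up 0.719 of the range. Both gaps were taken on CPM and not on its log2, and the rate of 1 in 20 assumes normally distributed levels. On log2 CPM the largest gap was 38.3% of the range for Marco on chow and 63.5% for Folr2 on western diet.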

How the results depend on the processing

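The 8 calls among the 10 genes (5 that rose, 3 that fell) held in all 26 alternatives other than scaling to pan-macrophage transcripts. These include the fit without western diet replicates 3 and 5 together, which was chosen after their Marco level was seen and is a description only. That scaling gave 0 that rose and 9 that fell, and over the distinct other list genes 14 that rose and 128 that fell, against 92 and 19. It turned Clec4f to -0.91, Vsig4 to -0.55, Cd5l to -0.29, Folr2 to -0.64 and Adgre1 to -0.084 in log2, because the sum it divides by rose itself. With single libraries left out, 5 of the 10 rose each time and 3 to 4 fell, and of the other list genes 85 to 93 rose and 17 to 27 fell. Library size alone shifted the median of all genes from -0.0091 to 0.12 in log2, and rises made up 73.5% of calls in place of 51.2%. Of the pairs, 0 passed in either diet without the 2 farthest libraries, and 1 passed on chow without both libraries with pancreatic transcripts; fewer libraries enter these tests. No paired analysis was possible because no label ties a western diet mouse to a chow mouse. Depth limits Cd163 and Marco on western diet, where libraries held as few as 7 and 3 counts.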

Other observations

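Markers of other liver cells also differed by diet, and most of these counts depended on single livers. Over all genes tested 24.8% rose and 23.6% fell. Of 5 tested T and NK cell markers 5 rose, and 3 did without western diet replicate 5 or chow replicate 1, 4, 5 or 6, each left out alone. Of 7 B cell markers 2 rose and 5 did not pass; the number that rose was 0 without western diet replicate 5 or 7 or chow replicate 1, 3, 5, 6 or 7, 1 without western diet replicate 3 or chow replicate 2 or 4, and 4 without chow replicate 8. Of 10 stellate cell markers 7 rose and 3 did not pass. Of 8 hepatocyte markers 2 fell and 6 did not pass; 5 fell without western diet replicate 1 or 3, and 1 without western diet replicate 2, 5, 6, 7 or 8 or chow replicate 3, 4, 5, 8 or 9. The 13 tested pancreatic acinar markers all missed the threshold; without western diet replicate 5, the liver of its diet with the most of them, 10 fell, and without chow replicate 2, 1 rose. T and NK cell markers summed to 84.3 CPM in western diet replicate 5 and to 10.3 to 26.6 CPM in the others of its diet.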
